A study of Mus musculus with 6 samples.

Results

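The genes described here are 8 neighbours on mouse chromosome 1, between 75 and 80 Mb of the GRCm38 build: *Ptprn*, *Resp18* and *Dnpep* at the near end of that stretch, and *Acsl3*, *Ap1s3*, *Wdfy1*, *Mrpl44* and *Serpine2* at the far end. They are 8 of the 24421 genes in a table of RNA sequencing counts from primary cultures described as endothelial. Of the 8, 7 had enough reads to be tested. *Wdfy1* and *Ptprn* were chosen by their fold change and adjusted p between the genotypes in these same cultures, and the other 6 by their place near them. The genotype differences of the 8 genes are therefore given as a description, and nothing is supported with them.

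Gene expression was compared between 3 *Nhe6*-knockout and 3 wildtype cultures, to look for differences in overall expression in endothelial cells taken from the capillaries of the stria vascularis, the vascularised epithelium of the cochlear lateral wall. The knockout mice carried a targeted gene disruption. Cells came from mice on postnatal days 10 to 12, were pooled from several mice per culture, sorted by fluorescence and passaged, and received no treatment. The labels give C57BL/6N as the strain background of all 6 cultures, knockout and wildtype alike, whereas the study's methods describe a 129P2-derived allele crossed back to C57BL/6J. The strain of chromosome 1 in each culture was not examined, since the table holds counts and no sequence.

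*Wdfy1* encodes a protein with WD40 repeats and a FYVE zinc finger, a domain that binds the lipid phosphatidylinositol 3-phosphate (PI3P) and so places its owner on early endosomes. It is known as a factor that brings the adaptor TRIF to the Toll-like receptors TLR3 and TLR4. *Ptprn* encodes IA-2, a phosphatase-like protein without catalytic activity that spans the membrane of dense-core secretory granules in neurons and endocrine cells, and *Resp18* encodes a granule protein related to its lumenal part. The other neighbours have unrelated work: *Acsl3* encodes a long-chain acyl-CoA synthetase of lipid droplets, *Ap1s3* a small subunit of the AP-1 clathrin adaptor, *Dnpep* an aspartyl aminopeptidase of the cytosol, *Mrpl44* a protein of the large mitochondrial ribosomal subunit, and *Serpine2* the secreted protease inhibitor nexin-1.

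The libraries held 25587097 to 29126232 reads on genes. A normalized count is the read count scaled by edgeR's TMM method to the mean library size. On the first principal component wildtype replicate 2 was at 106, far from the -28.5 to -6.52 of the remaining libraries, so fold changes of members, neighbours and partners that moved by more than 1.5 times without it are also given without it. The cell type given in the labels was checked on 12 endothelial markers: 5 averaged 100 normalized counts or more, among them *Emcn* (12380), *Eng* (3760) and *Cdh5* (1968), while *Cldn5* had no read in any library and *Pecam1* never passed 7.82. The *Cdh5* mean joins 219.9, 232.4 and 178.9 in knockout with 2509, 5200 and 3470 in wildtype cultures. It was 17.7-fold lower in knockout, with an edgeR adjusted p of 0.0133, and 9 of 13479 genes tested passed 0.05. *Flt1* was also lower in every knockout culture (mean 505.6 against 1749), as were 9.57% of all genes tested. *Emcn*, *Eng* and *Tek* overlapped between the genotypes. All 7 fibroblast markers passed a mean of 100, led by *Col1a2* (136100), and so did 5 of 10 mural cell, 4 of 8 macrophage, 2 of 7 epithelial, 1 of 7 melanocyte and 1 of 5 glial markers. The summed level of each marker list overlapped between the genotypes, that of the endothelial list with 15870 to 24530 in knockout and 10980 to 22420 in wildtype cultures. In every library but wildtype replicate 2, where *Emcn* had 409.7, most of the endothelial sum was *Emcn*. The overlap of this sum therefore says little about the other endothelial markers. For the mural list this overlap rested on the marker *Acta2* in wildtype replicate 2. Without *Acta2* the mural sums were 21540 to 22320 in knockout and 13670 to 18030 in wildtype cultures, without overlap. Most of that sum was *Pdgfrb*, with 18470, 18990 and 18360 in knockout and 14690, 7793 and 16720 in wildtype cultures. *Cspg4* went the other way in wildtype replicate 2, at 4410. *Acta2* was left out after its values were seen, and 19.9% of all single genes tested had no overlap.

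**Figure D1:**
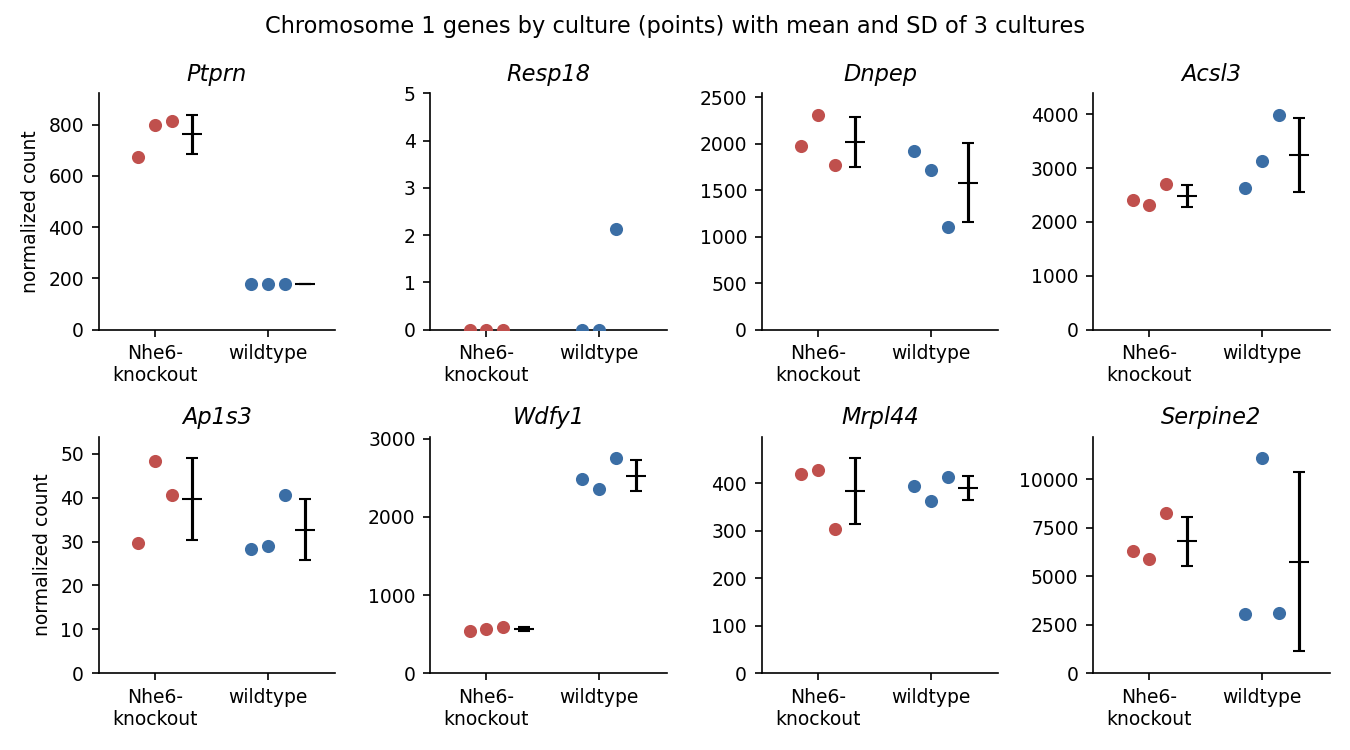
Normalized counts of the 8 genes in each culture (points, 3 *Nhe6*-knockout in red and 3 wildtype in blue), with the mean and SD of 3 cultures in black for the 7 genes tested; each vertical axis starts at 0 and has its own scale. *Wdfy1* is low in all 3 knockout cultures and *Ptprn* is high in all 3, whereas the points of the other 6 genes overlap between genotypes.

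*Wdfy1* RNA was lower in every *Nhe6*-knockout culture. The gene (ENSMUSG00000073643) lies on the minus strand from 79702262 to 79776143. It had 539.5, 565.1 and 588.8 normalized counts in the knockout cultures and 2487, 2354 and 2748 in the wildtype cultures, so that the lowest wildtype culture stood far above the highest knockout culture. This was 564.5 ± 24.65 in knockout against 2530 ± 200.3 in wildtype (mean ± SD, n = 3 each), a 4.48-fold lower level. In RNA from whole cultures, fewer cells that use a gene and less RNA per cell cannot be told apart.

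The log2 fold change of *Wdfy1* in *Nhe6*-knockout relative to wildtype was -2.16 (SE 0.118), with an adjusted p of 0.00614 in edgeR's quasi-likelihood test, adjusted by the Benjamini-Hochberg method over all 13479 genes tested. These are the values that singled the gene out. It ranked 2nd of all genes tested by p, yet only 129th of 6998 genes with a negative fold change by size, because its cultures differed so little within each genotype. The spread between cultures was 4.37% of the mean in knockout, close to the 4.15% that counting reads alone would give, and 7.92% in wildtype. Over 11127 genes that averaged 100 normalized counts or more, the median spread was 8.98% in knockout and 20.8% in wildtype. Wildtype replicate 2, which stood apart in other genes, had 0.899 times the mean of wildtype replicates 1 and 3 for *Wdfy1*.

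*Wdfy1* has 9 protein-coding transcripts in the GENCODE M21 annotation. Of these, 7 start at position 79761769, and only 1 starts at the outermost position, 14374 bp upstream. The longest transcript overlaps the start of *Mrpl44*, on the opposite strand, by 126 bp. Counts per gene do not tell these transcripts apart.

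*Mrpl44* itself, the closest neighbour, had overlapping counts in the genotypes. The gene (ENSMUSG00000026248, plus strand, 79776018 to 79781445) had 419.5, 427.5 and 304.8 normalized counts in the *Nhe6*-knockout cultures and 394.1, 362.2 and 413 in the wildtype cultures. Its log2 fold change was -0.02 (SE 0.187), with an edgeR adjusted p of 0.973. The sign of so small a value depended on the setting: it was 0.01 with upper-quartile normalization, 0.11 without *Nhe6*-knockout replicate 3 and -0.08 without wildtype replicate 2. Since *Mrpl44* and the longest *Wdfy1* transcript run head to head, the stretch before the *Mrpl44* start is shown here, from RefSeq on GRCm38.p6, without the bases that lie in the first exon of that *Wdfy1* transcript (chr1:79775768-79775959, plus strand, 5′ to 3′):
*Mrpl44*: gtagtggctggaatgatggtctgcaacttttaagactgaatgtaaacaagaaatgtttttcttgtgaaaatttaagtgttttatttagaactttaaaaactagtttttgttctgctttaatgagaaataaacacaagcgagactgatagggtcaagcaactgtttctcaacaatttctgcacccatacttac
The 250 bases before the *Mrpl44* start held 4 CpG dinucleotides at 38% G and C, against a median of 6 CpG over 32851 promoter windows of that length.

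*Ptprn* RNA was higher in every *Nhe6*-knockout culture. The gene (ENSMUSG00000026204) lies on the minus strand from 75247027 to 75264502, 4.44 Mb from *Wdfy1*. It had 675.5, 798.4 and 813.2 normalized counts in the knockout cultures and 179, 179.6 and 176.5 in the wildtype cultures, with a wide gap between the genotypes. This was 762.3 ± 75.58 in knockout against 178.4 ± 1.597 in wildtype (mean ± SD, n = 3 each), a 4.27-fold higher level in knockout. The 3 wildtype cultures lay closer together than counting reads allows on average, at 0.895% of the mean against the 7.58% that counting alone would give, so their closeness says little about the precision of the wildtype level.

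The log2 fold change of *Ptprn* was 2.10 (SE 0.15), with an edgeR adjusted p of 0.0133, and these values too are what singled the gene out. It ranked 2nd by p and 203rd by size among 6481 genes with a positive fold change. *Wdfy1* and *Ptprn* were the only members past the adjusted threshold of 0.05, against a background of 9 of 13479 genes, or 0.0668% (0.0371% lower and 0.0297% higher). They were also the only members whose cultures did not overlap between the genotypes, which held for 19.9% of all genes tested (9.57% lower and 10.3% higher). A log2 fold change of at least 2 in size, which both had, was seen in 2.75% of genes. Nothing is read from these counts, since the same contrast chose both genes. Both kept their size in each of 13 alternative settings, from -2.22 to -2.11 for *Wdfy1* and from 2.04 to 2.17 for *Ptprn*. The adjusted p was more sensitive: leaving out any knockout culture ended the call for both, with values up to 0.174 for *Wdfy1* and 0.179 for *Ptprn*, and for *Ptprn* so did leaving out wildtype replicate 1 (0.0818) or 3 (0.0851).

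*Resp18*, the granule gene 7696 bp from *Ptprn* on the same strand, was all but silent. The gene (ENSMUSG00000033061, 75272199 to 75278415) had no read in 5 libraries and 2 reads in wildtype replicate 3. A count of 0 allows up to 3 reads in a library, which is 2.79 to 3.21 normalized counts. No fold change was computed for it. On the other side, *Dnajb2*, a co-chaperone gene that ends 1334 bp from *Ptprn*, had 969.7, 1030 and 1367 normalized counts in knockout and 1649, 1233 and 1314 in wildtype cultures, and these overlap.

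The stretches before *Ptprn* and *Resp18* are shown because these neighbours on 1 strand, both known from granule-bearing cells, had such unlike counts. They are from RefSeq on GRCm38.p6, minus strand, 5′ to 3′, just before a RefSeq start of each gene (chr1:75264214-75264433 for *Ptprn*, without bases in annotated exons, and chr1:75278416-75278665 for *Resp18*). Capitals mark the letters TGACG, the half-site of the cAMP response element, searched on both strands (CGTCA on the strand shown is the same half-site on the other).
*Ptprn*: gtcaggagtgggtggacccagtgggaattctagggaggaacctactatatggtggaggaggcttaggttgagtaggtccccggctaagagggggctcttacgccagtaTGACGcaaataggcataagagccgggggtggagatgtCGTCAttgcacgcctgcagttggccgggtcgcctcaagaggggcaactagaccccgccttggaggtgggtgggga
*Resp18*: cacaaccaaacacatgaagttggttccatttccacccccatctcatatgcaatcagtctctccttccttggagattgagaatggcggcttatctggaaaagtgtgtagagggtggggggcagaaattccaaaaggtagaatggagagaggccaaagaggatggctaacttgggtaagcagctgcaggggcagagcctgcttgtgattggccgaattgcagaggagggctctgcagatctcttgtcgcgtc
RefSeq gives 2 starts for *Ptprn*. GENCODE M21 also has a start farther out, at 75264502, so the *Ptprn* stretch shown lies inside the span given above for the gene. The window before the outer RefSeq start, shown here, held the half-site 2 times, beginning 117 and 80 bases before that start. The window before the inner RefSeq start held none, and the *Resp18* window held none. The half-site occurs in 17.8% of all 32851 promoter windows of 250 bases. RefSeq windows were found for 7 of the 8 genes, all but *Wdfy1*, and apart from *Ptprn* the half-site was found only before *Dnpep*. A match of letters is no proof of a bound site, and none was measured.

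*Dnpep* (ENSMUSG00000026209, minus strand, 75307896 to 75317990), 43.4 kb beyond *Ptprn*, had 1979, 2311 and 1775 normalized counts in knockout and 1924, 1715 and 1107 in wildtype cultures. Its log2 fold change was 0.35 (SE 0.227), with an edgeR adjusted p of 0.613. It ranged from 0.14, without wildtype replicate 3, to 0.51 over the alternatives. The genotypes overlapped: wildtype replicate 3 was the lowest culture, and wildtype replicate 1 lay among the knockout cultures.

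*Acsl3* (ENSMUSG00000032883, plus strand, 78657825 to 78707743) had 2402, 2317 and 2713 normalized counts in knockout and 2627, 3138 and 3987 in wildtype cultures. The highest knockout culture lay just above the lowest wildtype culture. The log2 fold change was -0.39 (SE 0.177), with an edgeR adjusted p of 0.456, and -0.225 without wildtype replicate 3. *Utp14b*, a gene of ribosome assembly that lies entirely inside *Acsl3* on the same strand, had a log2 fold change of -0.40 (SE 0.294), and reads in the shared stretch could belong to either gene.

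*Ap1s3* (ENSMUSG00000054702, minus strand, 79606876 to 79671972), 30.3 kb from *Wdfy1*, was the faintest of the members tested. It had 29.74, 48.33 and 40.71 normalized counts in knockout and 28.36, 28.89 and 40.66 in wildtype cultures, which overlap. Its log2 fold change was 0.28 (SE 0.362), with an edgeR adjusted p of 0.821. It ranged from 0.11, without *Nhe6*-knockout replicate 2, to 0.46 over the alternatives. A change would have to be several times this SE to pass the threshold, so smaller ones could not be detected at this depth.

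*Serpine2* (ENSMUSG00000026249, minus strand, 79794197 to 79861180), 12.8 kb from *Mrpl44*, was the member whose value moved most when 1 library was left out. It had 6285, 5877 and 8248 normalized counts in the knockout cultures and 3040, 11070 and 3105 in the wildtype cultures. Wildtype replicate 2 thus stood 3.6-fold above the mean of wildtype replicates 1 and 3, and above every knockout culture, while the other wildtype cultures lay below every knockout culture. With all 6 libraries the log2 fold change was 0.25 (SE 0.532), with an edgeR adjusted p of 0.899.

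Without wildtype replicate 2 the log2 fold change of *Serpine2* was 1.14 (SE 0.183), with an edgeR adjusted p of 0.0379, where 2.88% of 13728 genes passed (1.62% higher). Without wildtype replicate 1 it was -0.065, and without wildtype replicate 3 it was -0.059. Wildtype replicate 2 also had 16270 normalized counts of *Acta2*, the actin of contractile cells, where wildtype replicates 1 and 3 had 29.34 and 70.62, and 27190 of *Col1a1*, a fibrillar collagen, where they had 207.3 and 212.9. Its summed level of the 10 mural markers was 29940, the highest of all libraries (16190 to 23530 in the others). Without *Acta2* its sum was 13670, the lowest, against 16170 and 18030 in wildtype replicates 1 and 3 and 21540 to 22320 in knockout cultures. *Pdgfrb*, *Rgs5*, *Des* and *Abcc9* were each lowest in that library, whereas *Cspg4* (4410) and *Cnn1* (33.02), like *Acta2*, were highest there. The summed level of the 8 macrophage markers there was 91.84, also the lowest (1282 to 3250 in the others). The part of these in the *Serpine2* level was not tested.

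**Figure D2:**
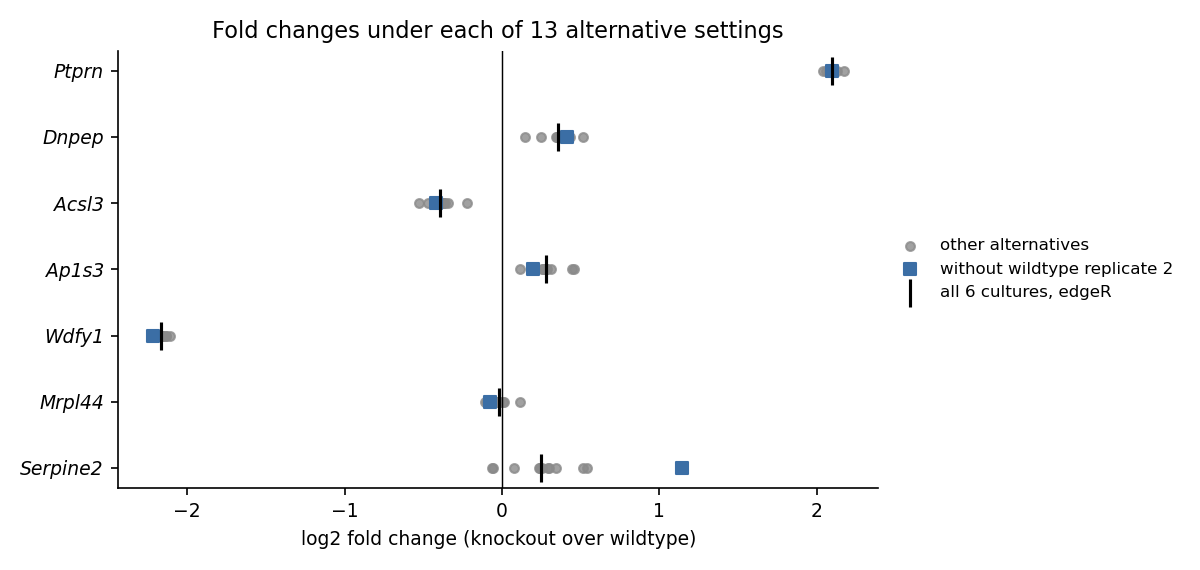
Log2 fold change (*Nhe6*-knockout over wildtype, horizontal axis) of the 7 tested members in the fit of all 6 cultures (black bar), without wildtype replicate 2 (blue square) and in the other 12 alternatives (grey points). *Wdfy1* and *Ptprn* hold their values, and *Serpine2* moves from 0.25 to 1.14 when wildtype replicate 2 is left out.

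Levels of different genes were compared only per length, as normalized counts per kb of exon. In wildtype cultures *Acsl3* was highest, at 746 ± 158 (SD, n = 3) per kb, and it was followed by *Serpine2* at 693 ± 558, *Wdfy1* at 390 ± 30.9 and *Dnpep* at 369 ± 98.9. The ranges of neighbours in this order overlapped down to *Dnpep*, so these 4 genes cannot be ranked by pairs of neighbours. *Acsl3*, at 603 to 915, did lie above *Wdfy1* (363 to 424) and *Dnpep* (258 to 449) in every culture. Below them, and without overlap, came *Mrpl44* at 237 ± 15.6, *Ptprn* at 42.0 ± 0.376 and *Ap1s3* at 11.3 ± 2.42 per kb.

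In *Nhe6*-knockout cultures *Wdfy1* stood 6th, at 87.0 ± 3.8 (SD, n = 3) per kb, and *Ptprn* stood 5th, at 179 ± 17.8. The range of *Ptprn* overlapped that of *Mrpl44*, at 234 ± 41.8. *Ptprn* was thus above *Wdfy1* in knockout and below it in wildtype cultures, with no overlap in either. Above these were *Serpine2* at 821 ± 153, and *Acsl3* at 569 ± 47.8 and *Dnpep* at 471 ± 63.1, whose ranges overlapped. *Ap1s3* was lowest among the tested members at 13.8 ± 3.25.

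The rest of the 75 to 80 Mb stretch is given as a description too. The stretch was drawn around *Wdfy1* and *Ptprn*, and these, its only genes past the adjusted threshold, were left out as members. A count of 0 among the others was therefore to be foreseen and tests nothing. The table holds 35 other genes there, of which 24 had enough reads, and 0 of the 24 passed the adjusted threshold of edgeR, against 0.0668% of all genes. At an unadjusted p under 0.05, 1 of the 24 passed, with 11.8% of all genes passing. The other genes of the stretch split evenly, 13 with a log2 fold change below 0 and 11 above, with a median of -0.03 against -0.02 over all genes tested. In 22 of the 24 the log2 fold change was smaller than 1 in size, which is 91.7%, against 90.5% of all genes.

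**Figure D3:**
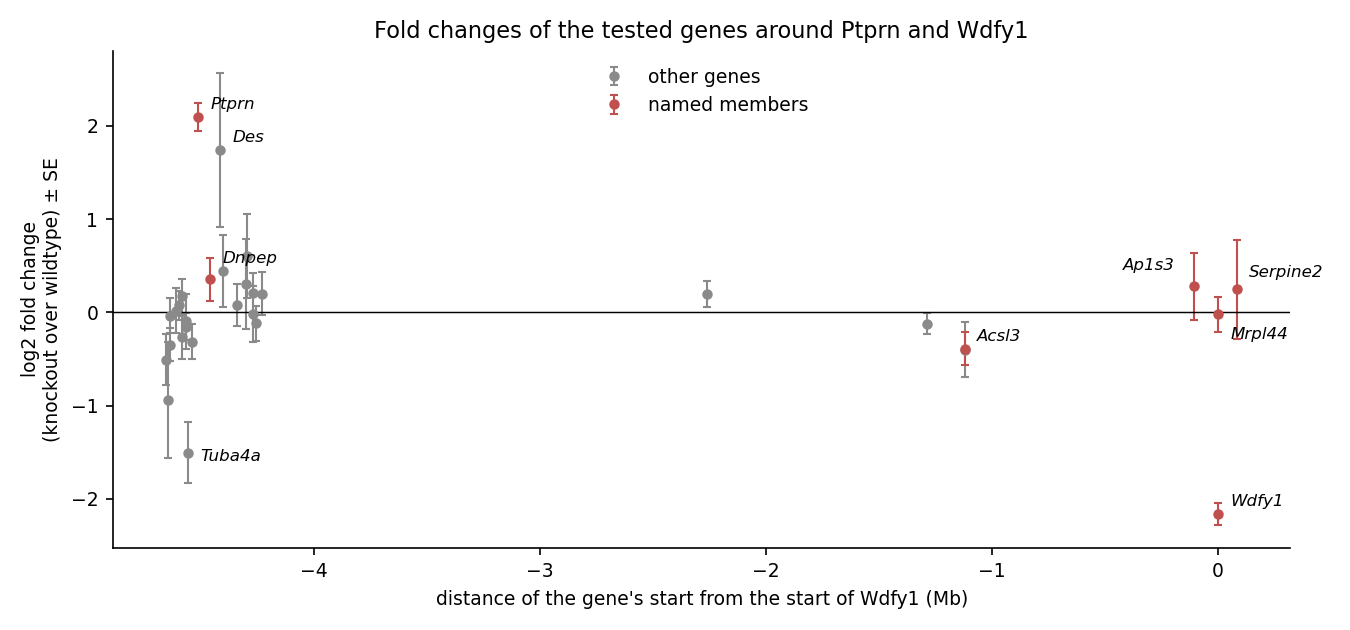
Log2 fold change with SE (*Nhe6*-knockout over wildtype, vertical axis) of the 31 tested genes between 75 and 80 Mb against the distance of each gene's start from that of *Wdfy1* in Mb (horizontal axis), members in red and other genes in grey. *Wdfy1* at -2.16 and *Ptprn* at 2.10 lie apart from most genes around them, which gather near 0.

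*Tuba4a*, an alpha tubulin gene 27.2 kb from *Ptprn*, was the gene of the stretch with an unadjusted p under 0.05. It had 270.8, 341.1 and 183.7 normalized counts in knockout and 834.2, 923.6 and 498.6 in wildtype cultures, with every knockout culture below every wildtype culture. Its log2 fold change was -1.50 (SE 0.324), the lowest of the 24, with an edgeR adjusted p of 0.138 that did not pass, although it passed in DESeq2 (adjusted p 0.00137), where 4.69% of 13381 genes did (1.83% lower and 2.85% higher). The end of *Tuba4a* overlaps that of *Stk16* on the opposite strand by 1379 bp, and how the counting used strand is not given in the sources used here. *Stk16* had a log2 fold change of -0.15 (SE 0.147), and -0.24 without wildtype replicate 2.

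*Des*, which encodes the muscle and pericyte filament desmin, had the highest fold change of the 24 genes. It had 166.7, 121.8 and 88.99 normalized counts in knockout and 51.83, 4.128 and 56.71 in wildtype cultures, without overlap. Its log2 fold change was 1.74 (SE 0.822), with an edgeR adjusted p of 0.472, and its lowest value was in wildtype replicate 2, without which it was 1.21 (SE 0.347, adjusted p 0.135). *Nhej1*, a DNA repair gene at the near edge of the stretch, was the only other gene without overlap, at -0.51 (SE 0.272). Of the 24 genes, 8.33% were lower and 4.17% higher without overlap, against 9.57% and 10.3% of all genes tested.

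Partners of the members elsewhere in the genome were taken from 8 lists of pathways and families, 160 tested genes in all, members left out. Of these, 0 passed the adjusted threshold of edgeR and 7 passed in DESeq2, where 4.69% of all genes did. At an unadjusted p under 0.05, 8 were lower and 8 higher, 5% in each direction, against 5.71% and 6.14% of all genes tested, and the median log2 fold change was -0.03.

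**Figure D4:**
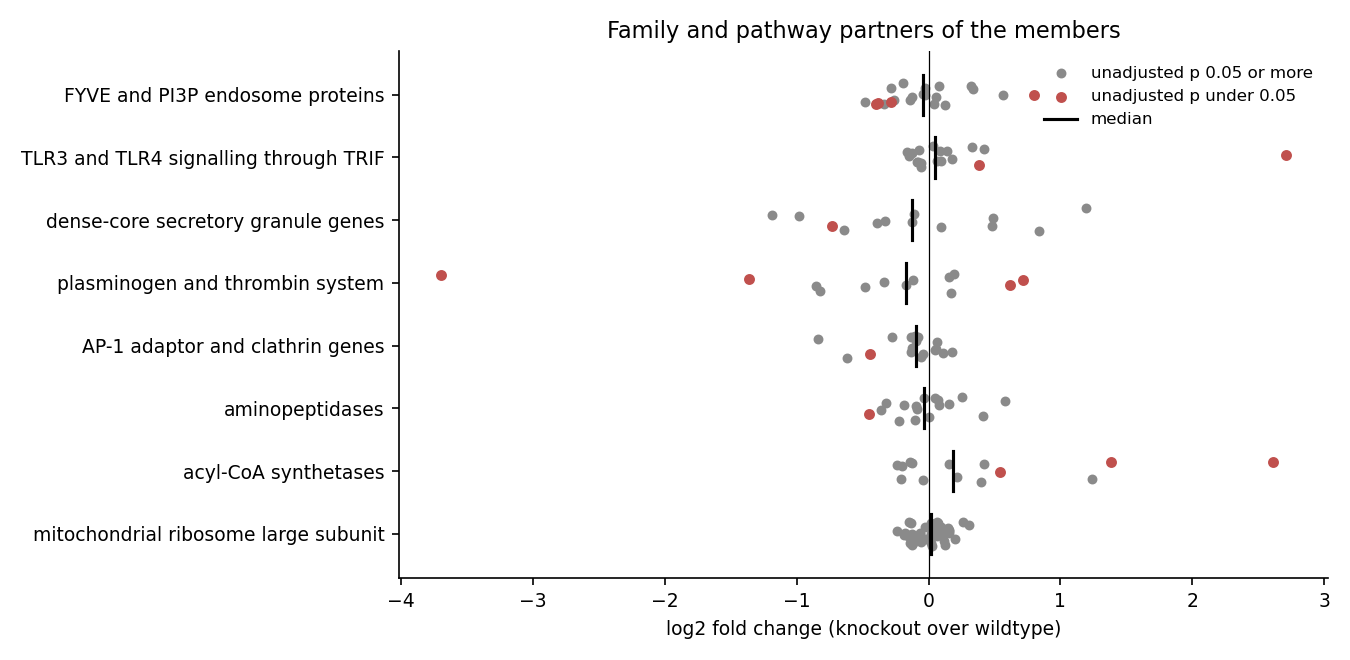
Log2 fold change (*Nhe6*-knockout over wildtype, horizontal axis) of each tested gene in 8 lists of partners, with genes at an unadjusted p under 0.05 in red and the median of each list as a black bar; the height of a point within a row has no meaning. Medians lie between -0.17 and 0.18, and the 47 genes of the mitochondrial ribosome lie within -0.24 and 0.31.

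Among 21 genes of FYVE proteins and PI3P, the partners of *Wdfy1* on endosomes, the median log2 fold change was -0.04. At an unadjusted p under 0.05, 3 were lower (14.3%) and 1 higher (4.76%), against 5.71% and 6.14% of all genes tested. The highest was *Wdfy2*, the closest relative of *Wdfy1*, with 1045, 931.3 and 588.8 normalized counts in knockout and 530.1, 417.9 and 528.6 in wildtype cultures. Its log2 fold change of 0.80 (SE 0.244) did not pass, with an edgeR adjusted p of 0.277. Those lower were *Zfyve9*, the SMAD anchor SARA, at -0.40 (SE 0.127), *Plekhf2* at -0.38 (SE 0.151) and *Pik3c3*, the kinase that makes PI3P, at -0.29 (SE 0.119), and none passed after adjustment. *Eea1*, an early endosome tether, had -0.48 (SE 0.287), the lowest of the list with all libraries, but -0.14 without wildtype replicate 2, when *Plekhf2* at -0.47 and *Zfyve9* at -0.42 were lower. *Plekhf1* had 0.33 (SE 0.362), and 0.16 without that library.

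Of 18 tested genes that act with TLR3, TLR4 and TRIF, 0 were lower and 2 higher at an unadjusted p under 0.05, with a median of 0.05. The 2 higher are 11.1% of the list, where 6.14% of all genes tested were higher and 5.71% lower. *Irf7*, an interferon-induced transcription factor, had 715.9, 751.9 and 142.9 normalized counts in knockout and 98.77, 60.89 and 86.67 in wildtype cultures. Knockout replicate 3 stood well below the other knockout cultures yet above all wildtype cultures. The log2 fold change of 2.71 (SE 0.633) did not pass in edgeR (adjusted p 0.164) and passed in DESeq2 (adjusted p 0.000462). The other was the adaptor *Myd88*, at 0.39 (SE 0.159). The receptor *Tlr3* had 0.42 (SE 0.308), and 0.19 without wildtype replicate 2, while *Tlr4* had -0.16 (SE 0.177), *Tradd* had -0.15 (SE 0.216), and *Ifnb1*, which encodes interferon beta, had no read in any library.

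Most of the machinery with which *Ptprn* works in endocrine cells was faint. Of 20 dense-core granule genes, 13 had enough reads to be tested and 4 averaged 100 normalized counts or more. *Cpe*, a carboxypeptidase that trims peptide hormones, was by far the most abundant, with 31210, 30550 and 33800 normalized counts in knockout and 49940, 64340 and 44840 in wildtype cultures. It was lower in all 3 knockout cultures, at -0.74 (SE 0.207), and did not pass in edgeR (adjusted p 0.245), though it did in DESeq2 (adjusted p 0.00561). The amidating enzyme *Pam* had -0.11 (SE 0.294), the vesicle GTPase *Rab3a* -0.13 (SE 0.403; -0.34 without wildtype replicate 2) and the syntaxin *Stx1a* 0.49 (SE 0.241). The list as a whole had a median of -0.13.

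*Ptprn2*, the close relative of *Ptprn*, had 29.74, 22.31 and 20.83 normalized counts in knockout and 16.63, 1.032 and 13.91 in wildtype cultures. All 3 knockout cultures were above the wildtype cultures, but its log2 fold change of 1.19 (SE 0.791) had an edgeR adjusted p of 0.626, and without wildtype replicate 2 it was 0.66 (SE 0.411). Of 10 neuronal and neuroendocrine markers, only *Tubb3* averaged more than 100 normalized counts (104.6), *Rbfox3* had no read in any library, and *Chga*, the chromogranin that marks dense-core granules, had reads in 1 library. Their summed level was 252.8 to 333.2 in knockout and 192.6 to 301.3 in wildtype cultures, which overlap.

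For *Serpine2*, which inhibits thrombin and plasminogen activators, 13 partners were tested, and at an unadjusted p under 0.05, 2 were lower and 2 higher. This is 15.4% in each direction, against 5.71% lower and 6.14% higher over all genes tested. *Thbd*, the thrombin receptor thrombomodulin, had 952.7, 953.6 and 345.5 normalized counts in knockout and 6382, 21110 and 1655 in wildtype cultures, at -3.69 (SE 0.965, edgeR adjusted p 0.21). *Serping1*, the C1 inhibitor, had 2511, 2495 and 2233 in knockout and 5281, 8417 and 4862 in wildtype cultures, at -1.36 (SE 0.231, edgeR adjusted p 0.0983). With all libraries neither passed in edgeR, and both passed in DESeq2 (adjusted p 0.000141 for *Thbd* and 3.2e-05 for *Serping1*). Without wildtype replicate 2, where 1.26% of genes passed as lower in edgeR, *Thbd* had -2.43 (SE 0.646, adjusted p 0.115) and *Serping1* passed at -1.08 (adjusted p 0.0217). Higher were *F2r*, the thrombin receptor PAR1, at 0.61 (SE 0.188), and *Lrp1*, which clears protease and serpin complexes, at 0.71 (SE 0.26).

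For *Acsl3*, 14 acyl-CoA synthetases and fatty acid transport proteins were tested, 0 lower and 3 higher at an unadjusted p under 0.05, with a median of 0.18, the highest of the 8 lists. The 3 higher are 21.4% of the list, where 6.14% of all genes tested were higher and 5.71% lower. *Slc27a6*, a fatty acid transport protein, had 1241, 1120 and 810.3 normalized counts in knockout and 149.6, 62.95 and 306 in wildtype cultures, at 2.61 (SE 0.557, edgeR adjusted p 0.134). *Slc27a3*, of the same family, had 328.2, 356 and 448.7 in knockout and 135.9, 162 and 135.9 in wildtype cultures, at 1.38 (SE 0.202, edgeR adjusted p 0.0841). Both were without overlap. With all libraries both missed the threshold in edgeR and passed in DESeq2 (adjusted p 9.07e-05 for *Slc27a6* and 1.5e-06 for *Slc27a3*), and both passed in edgeR without wildtype replicate 2, at 2.21 (adjusted p 0.0399) and 1.47 (adjusted p 0.0346). The third was *Acsf2* at 0.54 (SE 0.133), and the lowest were *Acsl1* at -0.24 (SE 0.298) and *Acss3* at -0.21 (SE 0.437), which had -0.53 and -0.60 without wildtype replicate 2 and did not pass there either.

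Of 17 genes of the AP-1 adaptor and clathrin, 1 was lower at an unadjusted p under 0.05, the AP-1 binding protein *Synrg* at -0.45 (SE 0.149). This is 5.88%, against 5.71% of all genes tested. The clathrin light chain *Cltb* had -0.62 (SE 0.438), but -0.07 without wildtype replicate 2. The *Ap1s3* relative *Ap1s1* had 0.11 (SE 0.241), and 0.39 without that library, and *Ap1m1* had 0.18 (SE 0.145). Of 17 aminopeptidases, 1 was lower (5.88%), *Anpep* at -0.45 (SE 0.155), and *Npepl1* was at the other end with 0.58 (SE 0.284), or 0.32 without wildtype replicate 2. Of 47 proteins of the large mitochondrial ribosomal subunit, the partners of *Mrpl44*, 0 were lower or higher at an unadjusted p under 0.05. Over all genes tested, 5.71% were lower and 6.14% higher. The 47 ran from *Mrpl42* at -0.24 (SE 0.105) to *Mrpl52* at 0.31 (SE 0.141).

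The genes whose pattern was most like that of *Wdfy1* over the 6 libraries, by Pearson's r of log2 CPM among 11126 genes, were *Clcn4-2* (0.998), *Sdha* (0.997) and *Nt5c3* (0.997). None lies on chromosome 1, and their own differences were smaller, with log2 fold changes of -0.23, -0.28 and -0.51. Those most like *Ptprn* were *Gm7120* (0.993), *Prdm16* (0.992) and *Prickle1* (0.992), with log2 fold changes of 2.36, 0.88 and 0.49. These correlations describe 6 libraries in 2 genotypes, so any gene that separates the genotypes cleanly scores high.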

How the data were processed

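Libraries were poly(A)-enriched and stranded. The authors deposited raw read counts per gene symbol, without normalization. The submitters' processing notes name STAR 2.7.7a, HTSeq 0.13.5, DESeq2 1.26.0 and mm10, while the strand setting and annotation of the counting are not given in the sources used here. The 5 summary lines of reads outside genes, 22.2% of all reads, were left out. Counts of all genes were compared by genotype with edgeR 4.0.16 in R 4.3.3 (quasi-likelihood test, filterByExpr with a minimum count of 10, TMM factors from 0.976 to 1.03, Benjamini-Hochberg adjustment, threshold 0.05). The SE is the log2 fold change divided by the square root of F. DESeq2 1.42.0, limma-voom 3.58.1, other scalings and filters, a replicate block and leaving out each culture were alternatives, 13 in all, and the tests were first tried on simulated data. With 3 cultures against 3, an exact permutation test cannot go below 0.1. Positions and exon lengths are from GENCODE M21 (GRCm38), which placed 99.5% of the genes tested, and reads in stretches shared by genes are uncertain.

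The members and lists were chosen with earlier results of these data known. Named besides the members were genes of the 75 to 80 Mb stretch past a threshold or with the highest or lowest fold change, the 2 genes of each list with the largest fold change in each direction at a mean of at least 100 normalized counts, up to 3 markers per list, and the 3 genes most like *Wdfy1* and *Ptprn*. Other genes were named after their values were seen. The check of the targeted gene is not reported here.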

Additional observations from a re-analysis of the deposited data

How the results depend on the processing

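The number of genes past the threshold, 9 in edgeR with all libraries, was 21 with no filter beyond 1 count, 21 with at least 10 counts in every library and 627 in DESeq2, and ranged from 0 (without *Nhe6*-knockout replicate 3) to 395 (without wildtype replicate 2) when a culture was left out, with 1 without *Nhe6*-knockout replicate 1 or 2, 4 without wildtype replicate 1 and 2 without wildtype replicate 3. The cause was not tested. Of the other genes of the stretch, DESeq2 called 1 (*Tuba4a*) and leaving out a culture called 0. Of the 160 tested partner genes, DESeq2 called 7 (*Acsf2*, *Cpe*, *Irf7*, *Serping1*, *Slc27a3*, *Slc27a6* and *Thbd*), and leaving out a culture called 0 to 3, the 3 without wildtype replicate 2. Over all genes, DESeq2 called 4.69%, and edgeR without wildtype replicate 2 called 2.88%.

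*Wdfy1* passed in 9 of 13 alternatives, and *Ptprn* in 7. Leaving out a culture gave -2.22 to -2.11 for *Wdfy1* and 2.04 to 2.17 for *Ptprn*. *Mrpl44* turned to 0.00628 with upper-quartile normalization and ranged from -0.11 to 0.11 when a culture was left out. *Serpine2* ranged from -0.065 to 1.14 in the same way, the highest without wildtype replicate 2. *Dnpep*, *Acsl3* and *Ap1s3* kept their direction and did not pass in any of the 13.

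The replicate numbers are shared between genotypes, but same-numbered cultures did not deviate together (correlations of 0.207, -0.189 and 0.111). With a replicate block, 2 genes passed, *Wdfy1* had -2.16 and *Ptprn* 2.09 (both adjusted p 0.0748, not passing), and no other member changed its call or direction.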

Other observations

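Of the genes of the stretch with too few reads in most libraries to be tested, 2 had reads mainly in wildtype replicate 2. *Kcne4*, a potassium channel subunit, had 973.1 normalized counts there, 1.956 and 1.07 in wildtype replicates 1 and 3, and 0, 1.859 and 8.52 in the *Nhe6*-knockout cultures. *Scg2*, a secretogranin of dense-core granules, had 205.4 there, 0 and 7.49 in wildtype replicates 1 and 3, and 0, 1.859 and 5.68 in the knockout cultures. *Pcsk1*, a prohormone convertase of the same granules on another chromosome, had 161 there and at most 4.647 elsewhere. *Ptprn* in that culture was 1.01 times the mean of the other wildtype cultures.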
